A study of Mus musculus with 2 samples.

Results

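Genes of bile acid handling and of regional identity in the mouse small intestine are described here, as the 10 rows of a deposited table of 17219 genes whose symbols are Slc10a2, Slc51a, Slc51b, Nr1h4, Nr0b2, Fgf15, Gata4, Gata6, Onecut2 and Pdx1. All 10 had a fold change in both comparisons of the authors' deposited table.

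Bile acids are made in the liver, help to dissolve dietary fat in the gut lumen and are taken back up mainly in the ileum, the last segment of the small intestine. Enterocytes there import them through the apical transporter SLC10A2 and export them to the blood through a heterodimer of SLC51A and SLC51B. Inside the cell they activate the nuclear receptor FXR, the product of Nr1h4, and in mice FXR raises Fgf15, a hormone that represses bile acid synthesis in the liver. Regional identity along the gut is set in part by transcription factors: in mice PDX1 and ONECUT2 mark the proximal end, and GATA4 keeps ileal bile acid genes low in the jejunum.

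The study compared intestinal organoids, epithelial cultures grown from crypts in Matrigel, between mice with floxed Fabp4 alleles that carried a villin-Cre transgene (F4KO) and mice with the floxed alleles but no Cre (WT). Fabp4 encodes a fatty acid binding protein, and villin-Cre acts in intestinal epithelium. Both groups thus share the floxed alleles. RNA was taken on day 6 of culture in IntestiCult medium, with 1 library per genotype. The titles and design text call F4KO a knockout, and its genotype label calls it a knockdown. Neither the number of mice behind a library nor their age is given in the labels. The table also holds a comparison headed with WT and F4KO libraries named Epi, which the labels do not describe. It is called the Epi comparison here, and what these libraries are is not stated in the sources used here. The comparisons name no library in common.

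With 1 library per genotype there was no replicate error and no test of genotype. The deposited false discovery rate (FDR) compares 2 libraries. Whole read numbers were worked back from each gene's deposited p-value, and 95% intervals of read ratios (exact, Clopper-Pearson) cover counting error only. Library totals are known only relative to each other: taking the WT organoid library as 1, the totals were 0.992 for F4KO organoids, 1.12 for Epi WT and 0.911 for Epi F4KO. A scaled read number below is a read number divided by this relative total. Fabp4 itself had 1 and 0 reads in WT and F4KO organoids and 1 and 4 in the Epi libraries, too few to check the genotype labels. The Y-linked gene Ddx3y had 1 read in WT and 230 in F4KO organoids, against 374 and 448 in the Epi libraries, so the organoid libraries also differed in Y-linked expression; its part in the results was not tested.

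The largest contrast among the 10 genes lay between the organoid and the Epi libraries rather than between genotypes. The bile acid transporters among the 10 genes had few reads in organoids and many in the Epi libraries, and Pdx1 showed the opposite pattern. Scaled to equal totals, the Epi WT library held at least 2-fold more reads than the WT organoid library for 4 of the 10 genes and at least 2-fold fewer for 2. Over the 2008 genes whose reads were recovered in all 4 libraries, 24.2% were at least 2-fold higher and 46.7% at least 2-fold lower in Epi WT. The median of these 2008 genes was 58 reads in WT organoids and 34 in Epi WT, so they do not stand for the more abundant genes. In a bulk sample, fewer cells of a type and less RNA per cell cannot be told apart.

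The first 300 bases around the start sites show the DNA at the genes with the widest contrast, the 3 transporters and Pdx1. Sequences are from RefSeq on GRCm38.p6, from 250 bases before to 50 bases after the gene start and read along the gene's strand. The table of promoters matched 6 of the 10 genes. Capitals mark the nuclear receptor half-site AGGTCA or the GATA motifs AGATAA and TGATAA, searched on both strands, with no overlap between the matches shown.
Slc10a2, chr8:5105238-5105537, minus strand: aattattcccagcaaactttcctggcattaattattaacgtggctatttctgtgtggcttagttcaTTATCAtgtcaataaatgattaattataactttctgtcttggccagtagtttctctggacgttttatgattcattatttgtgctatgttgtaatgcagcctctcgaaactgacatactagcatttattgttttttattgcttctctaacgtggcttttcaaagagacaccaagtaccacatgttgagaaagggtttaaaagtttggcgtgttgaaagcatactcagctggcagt
Slc51a, chr16:32487830-32488129, minus strand: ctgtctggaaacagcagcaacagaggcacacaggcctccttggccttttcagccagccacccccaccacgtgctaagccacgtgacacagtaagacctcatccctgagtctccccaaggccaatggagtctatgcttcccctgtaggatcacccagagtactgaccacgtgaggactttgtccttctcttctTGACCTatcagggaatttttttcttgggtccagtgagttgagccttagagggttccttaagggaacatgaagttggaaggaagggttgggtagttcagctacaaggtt
Slc51b, chr9:65422724-65423023, minus strand: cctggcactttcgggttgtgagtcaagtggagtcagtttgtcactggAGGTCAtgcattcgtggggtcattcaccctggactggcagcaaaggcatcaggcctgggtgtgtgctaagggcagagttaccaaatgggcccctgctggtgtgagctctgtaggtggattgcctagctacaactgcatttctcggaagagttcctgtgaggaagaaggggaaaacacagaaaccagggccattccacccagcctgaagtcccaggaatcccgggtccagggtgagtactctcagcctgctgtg
Pdx1, chr5:147269847-147270146, plus strand: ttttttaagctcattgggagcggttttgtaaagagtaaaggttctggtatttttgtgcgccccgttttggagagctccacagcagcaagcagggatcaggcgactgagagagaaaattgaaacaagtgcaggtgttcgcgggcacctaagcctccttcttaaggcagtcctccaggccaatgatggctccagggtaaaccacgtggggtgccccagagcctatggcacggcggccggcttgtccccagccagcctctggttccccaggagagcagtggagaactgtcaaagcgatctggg

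Slc51a and Slc51b each held 1 half-site, beginning 58 and 203 bases before the start site. Slc10a2 held 1 GATA motif, beginning 184 bases before it. Neither motif was found in the Pdx1 window. A half-site occurred in 16.3% and a GATA motif in 18.6% of all 32851 promoters in the table, so single matches are common. The match is to letters only. Windows and distances are from the RefSeq gene start. The matched annotated transcript of Slc51b starts at base 65422955, against the gene start at 65422773, and those of Slc10a2 and Pdx1 also differ. The distances and the Pdx1 window thus depend on the start site used.

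Slc10a2 (chromosome 8, 5083219 to 5105287), the apical importer, had 28 reads in WT and 17 in F4KO organoids, and 1622 in Epi WT and 886 in Epi F4KO. Both organoid libraries lay far below both Epi libraries: scaled to equal totals, Epi WT exceeded WT organoids 51.7-fold (95% interval 35.6 to 78.1). In the authors' deposited table the log2 fold change of F4KO over WT was -0.69 in organoids (FDR 0.312) and -0.57 in Epi (FDR 4.60e-21). The value was lower in F4KO in both comparisons, and the interval of the organoid read ratio, 0.314 to 1.16, included 1.

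Slc51a (chromosome 16, 32475578 to 32487879) and Slc51b (chromosome 9, 65412753 to 65422773) encode the partner chains of the basolateral exporter. Slc51a had 40 reads in WT and 61 in F4KO organoids, against 11654 in Epi WT and 9723 in Epi F4KO. Another pair of Epi read numbers, 11535 and 9625, also fitted the deposited p-values of gene and transcript, and the pair nearest to the deposited fold change was used. Both Epi libraries lay far above both organoid libraries, and Epi WT stood 260-fold (191 to 364) above WT organoids. Slc51b had 47 and 38 reads in WT and F4KO organoids and 5201 and 3827 in the Epi libraries, a 98.8-fold (74.2 to 135) excess of Epi WT over WT organoids.

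The genotype differences of the exporter genes were smaller than the gap between organoid and Epi libraries. In the authors' deposited table Slc51a stood at log2 0.62 in organoids (FDR 0.137) and 0.04 in Epi (FDR 0.0994). Slc51b stood at -0.29 there in organoids (FDR 0.623) and -0.14 in Epi (FDR 9.78e-06), the second a small difference resolved by the depth of reads. They had opposite signs in both comparisons, and in organoids only the Slc51a read ratio of 1.54 (1.02 to 2.35) had an interval without 1. The organoid values of both rest on 38 to 61 reads per library.

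Nr1h4 (chromosome 10, 89454234 to 89533645), which encodes the bile acid receptor FXR, was expressed at more even levels. It had 650 reads in WT and 667 in F4KO organoids, and 1111 in Epi WT and 1446 in Epi F4KO. Epi F4KO was the highest of the 4 libraries after scaling and the organoid libraries were nearly equal. The deposited log2 fold change in the authors' deposited table was 0.05 in organoids (FDR 0.735) and 0.69 in Epi (FDR 2.74e-31).

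Nr0b2 and Fgf15, which are among the targets of FXR, had few reads in organoids. Nr0b2 (chromosome 4, 133553376 to 133556686), which encodes the corepressor SHP, had 56 reads in WT and 39 in F4KO organoids and 18 and 13 in the Epi libraries. It was the only bile acid gene of the 10 with fewer reads in both Epi libraries than in either organoid library; WT organoids held 3.49-fold (2.02 to 6.30) more than Epi WT. Its log2 fold change in the authors' deposited table was -0.51 in organoids (FDR 0.273) and -0.18 in Epi (FDR 0.834).

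Fgf15 (chromosome 7, 144896532 to 144900953) counted 43 reads in WT organoids and 27 in F4KO organoids, and 287 in Epi WT and 680 in Epi F4KO. In organoids the F4KO library was the lower one, and in Epi it was 2.92-fold the WT library. In the authors' deposited table Fgf15 was at log2 -0.65 in organoids (FDR 0.211) and 1.54 in Epi (FDR 3.28e-56). Fgf15 therefore had the widest gap between comparisons among the genes with at least 20 reads in each. The ratio of its Epi read ratio to its organoid read ratio was 4.60 (exact conditional 95% interval 2.72 to 7.90, counting error only). After scaling, Epi WT exceeded WT organoids 5.96-fold and Epi F4KO exceeded F4KO organoids 27.4-fold. Slc10a2, Nr1h4 and Fgf15 did not share a direction in Epi: the importer was lower, the receptor and the hormone higher.

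**Figure D1:**
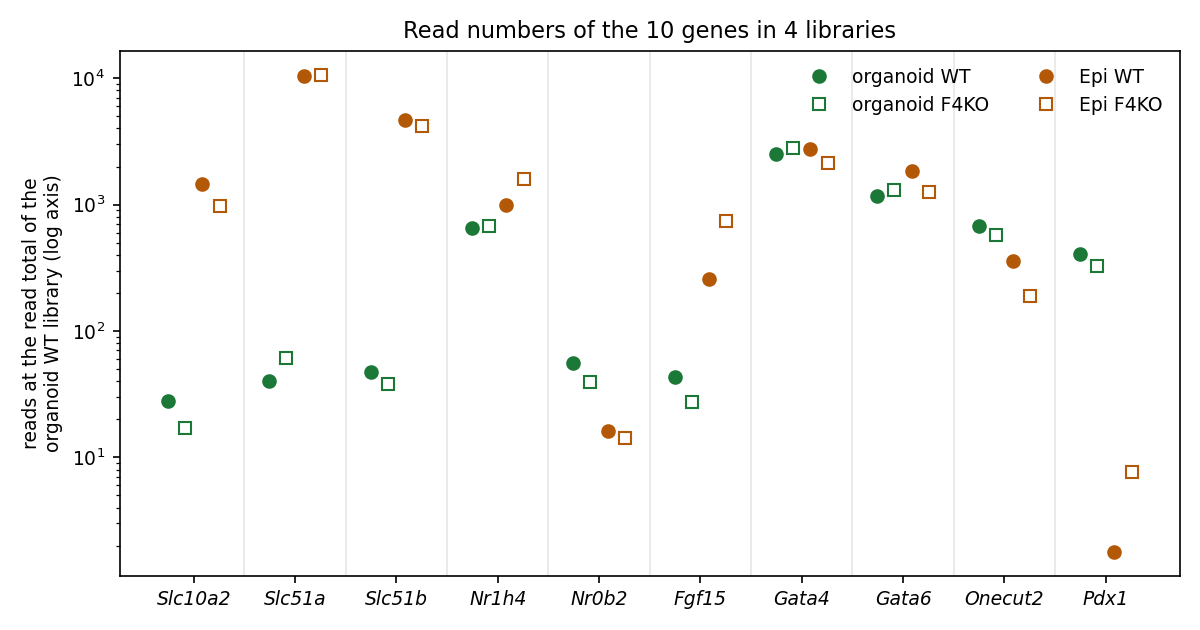
Reads of each gene in the 4 libraries, each divided by the relative read total of its library (log axis); filled circles are WT, open squares F4KO, green organoid and orange Epi, with 1 library each and no error bars. Slc10a2, Slc51a and Slc51b lie at 17.1 to 61.5 in organoids and at 973 to 10678 in Epi, and Pdx1 lies at 326 and 409 in organoids and at 1.79 and 7.69 in Epi.

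Among the regional transcription factors, Pdx1 (chromosome 5, 147270097 to 147275848), needed for pancreas and duodenum, had 409 reads in WT and 323 in F4KO organoids but 2 and 7 in Epi WT and Epi F4KO. WT organoids held 229-fold (63.0 to 1898) more scaled reads than Epi WT. In the authors' deposited table it was at log2 -0.33 in organoids (FDR 0.0162). Its Epi value of 2.20 (FDR 0.0930) rests on 9 reads in all, and the interval of that read ratio ran from 0.820 to 42.5.

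Onecut2 (chromosome 18, 64340032 to 64398488) counted 677 reads in WT organoids and 567 in F4KO organoids, and 402 in Epi WT and 171 in Epi F4KO. Both organoid libraries were higher than both Epi libraries, WT organoids by 1.89-fold (1.67 to 2.14) over Epi WT. The authors' deposited table gave log2 -0.17 in organoids (FDR 0.0206) and -0.63 in Epi (FDR 1.38e-12). Its read ratio in Epi was lower than the deposited ratio, at 0.523 (0.435 to 0.627) against 0.646.

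Gata4 (chromosome 14, 63198914 to 63271712) counted 2530 reads in WT organoids and 2771 in F4KO organoids, and 3069 in Epi WT and 1941 in Epi F4KO. Scaled Epi WT and WT organoid reads differed by 1.08-fold (1.027 to 1.142), so this gene did not follow the wide contrast of Pdx1. F4KO was the higher organoid library and the lower Epi library. The authors' deposited table gave log2 0.14 in organoids (FDR 0.00333) and -0.36 in Epi (FDR 2.45e-17).

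Gata6 (chromosome 18, 11052510 to 11085636), a relative of Gata4 active along the whole intestine, had the same pattern. It had 1174 and 1297 reads in WT and F4KO organoids and 2053 and 1153 in Epi WT and Epi F4KO. The authors' deposited table gave log2 0.15 in organoids (FDR 0.0441) and -0.53 in Epi (FDR 2.66e-23). Epi WT was the highest of the 4 libraries after scaling, and Epi F4KO and F4KO organoids stood at a ratio of 0.968 (0.894 to 1.05), whose interval included 1.

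Taking the genotype comparisons over the 10 genes, none passed the call rule of a deposited 2-fold change with FDR of 0.001 or less in organoids, where 0.347% of 15845 genes did. In Epi the rule called 1 of the 10, Fgf15, where it called 12.0% of 16336 genes, so the share among the 10 was close to that of all genes. At FDR of 0.001 or less alone, organoids again gave 0 of 10, against 3.09% of genes higher and 4.7% lower in F4KO. At a looser FDR of 0.05, 4 of the 10 passed in organoids (Gata4 and Gata6 higher, Onecut2 and Pdx1 lower), against 7.52% of genes higher and 10.2% lower, and 5 had an unadjusted deposited p under 0.05, against 27.4% of genes in either direction. In Epi the FDR limit of 0.001 gave 2 higher (Fgf15 and Nr1h4) and 5 lower (Slc10a2, Slc51b, Gata4, Gata6 and Onecut2), against 30.6% of genes higher and 7.92% lower.

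The Epi comparison was shifted upwards as a whole: the median deposited log2 fold change of its 12513 genes with at least 20 reads was 0.35 (quartiles 0.00 and 0.81), against -0.01 (quartiles -0.19 and 0.12) for 12381 genes in organoids. Over the 10 genes the median was -0.16 in Epi and -0.23 in organoids. Relative to the Epi median, Slc51a turned from 0.04 to -0.31, Fgf15 stood at 1.19, Nr1h4 at 0.34 and Gata6 at -0.88, and 7 of the 10 lay below it. Of the Epi genes past the FDR limit, 79.4% were higher as deposited and 68.9% after centring on that median. Centring changed the fold changes only, and the deposited FDR, which is not relative to that median, was kept.

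The comparisons differed gene by gene. The ratio of the Epi read ratio to the organoid read ratio had a counting interval without 1 for 6 of the 10 genes. The share over all genes was not worked out, so this count does not set the 10 genes apart. It was above 1 for Fgf15, for Nr1h4 at 1.55 (1.35 to 1.77) and for Pdx1, which had too few Epi reads to be measured. It was below 1 for Gata4 at 0.705 (0.651 to 0.763), Gata6 at 0.621 (0.557 to 0.691) and Onecut2 at 0.620 (0.499 to 0.769). For Slc10a2, at 1.10 (0.577 to 2.15), and Slc51b, at 1.11 (0.707 to 1.75), the organoid reads were too few to tell the comparisons apart.

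**Figure D2:**
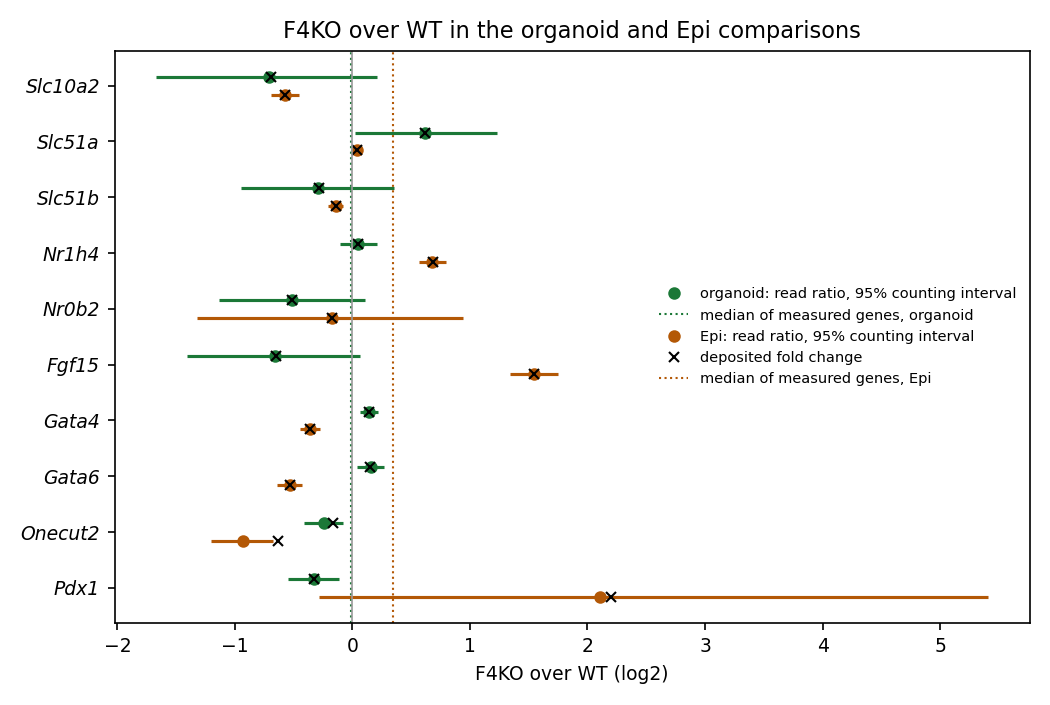
F4KO over WT on a log2 scale for each gene: dots are ratios of recovered reads with 95% counting intervals, crosses the deposited fold changes, and dotted lines the medians of all measured genes, with green for organoid and orange for Epi. Fgf15 is at -0.65 in organoids and 1.54 in Epi, and Gata4 and Gata6 lie above 0 in organoids and below 0 in Epi.

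Levels could be compared between genes only per length, for the 6 genes with 1 listed transcript. In scaled reads per kilobase, Pdx1 led in WT organoids at 190, followed by Slc51b at 66.3, Nr0b2 at 49.5, Fgf15 at 23.8, Slc51a at 15.3 and Slc10a2 at 6.74. In Epi WT the order was Slc51b at 6548, Slc51a at 3974, Slc10a2 at 349, Fgf15 at 142, Nr0b2 at 14.2 and Pdx1 at 0.827. Pdx1 thus moved from first to last. In Epi F4KO, Fgf15 at 413 stood above Slc10a2 at 234.

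The authors' table of transcripts split some genes further. For Gata4, 2 annotated transcripts of 3400 and 3374 bases differ by 26 bases in length and by 1 codon in coding sequence. The longer had 107 reads in Epi WT and 733 in Epi F4KO, and the shorter 2083 and 808. Their deposited log2 fold changes were 3.06 and -1.07 in the authors' deposited table. In organoids the longer had 3 and 0 reads and the shorter 1632 and 1647. The opposite Epi changes sit on transcripts that share nearly all of their sequence, so their split is uncertain, while the gene as a whole was lower.

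Nr1h4 also has a pair of annotated transcripts, of 1985 and 1964 bases, whose coding sequences differ by 12 bases or 4 codons. The longer fell from 163 reads in WT to 92 in F4KO organoids while the shorter stood at 343 and 448. In the authors' deposited table these were log2 changes of -0.80 (FDR 4.24e-05) and 0.40 (FDR 0.000399). In the Epi libraries the longer had 0 and 2 reads and the shorter 815 and 861, so the longer form was at 25.2% and 13.8% of the gene's reads in organoids and at 0% and 0.139% in Epi. Listed transcripts without a matched annotation also took Epi reads, with 174 and 372, 111 and 168, and 10 and 40. The first of them was at log2 1.39 in Epi in the authors' deposited table, against 0.38 for the shorter annotated form. These shares and read numbers carry the same uncertainty of assignment.

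**Figure D3:**
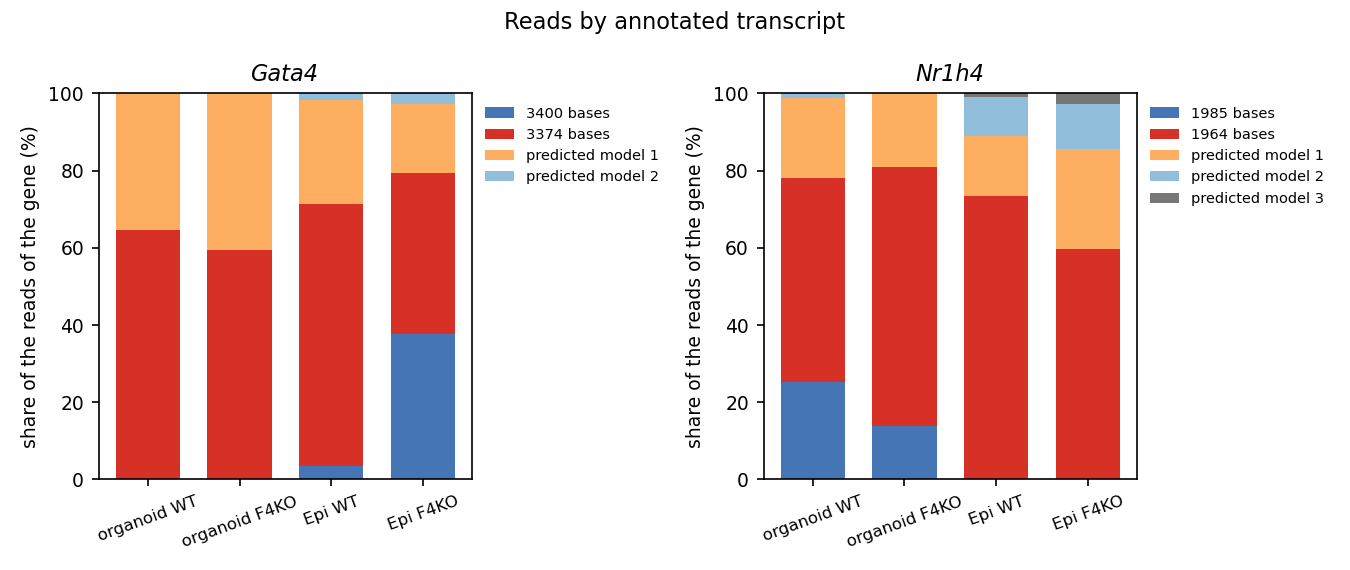
Share of each gene's reads (%) assigned to each listed transcript in the 4 libraries, for Gata4 and Nr1h4; colours are transcripts, named by annotated length where the annotation matched. The 3400-base Gata4 transcript takes 3.49% of reads in Epi WT and 37.8% in Epi F4KO, and the 1985-base Nr1h4 transcript 25.2% and 13.8% in the organoid libraries.

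Other bile acid transporters followed no single direction. Of 10 listed, 5 were measured in organoids, with 2 higher at FDR of 0.001 or less, 0 lower and a median log2 fold change of 0.17. The shares higher and lower at this limit were 3.09% and 4.7% of all genes in organoids and 30.6% and 7.92% of all genes in Epi. Here and below, these shares are over the 15845 and 16336 genes with a fold change, of which 12381 and 12513 were measured. Shares over measured genes alone were not worked out and may be higher. Of 6 transporters measured in Epi, 3 were higher and 2 lower (median 0.29). Slco2b1, an organic anion importer, was higher in both, with 191 and 366 reads in organoids (log2 0.94 in the authors' deposited table) and 303 and 476 in Epi (0.94). The efflux pump gene Abcc2 had 1873 and 2181 reads in organoids and 3501 and 1875 in Epi, at 0.23 and -0.60 in the authors' deposited table. Fabp6, the ileal bile acid binding protein, had 8 and 7 reads in organoids and 23191 and 20990 in Epi, the same contrast as its transporter partners.

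Of 13 receptors and partner nuclear receptors, 11 were measured in organoids and 0 passed the FDR limit in either direction (median 0.12), against 3.09% and 4.7% of all genes. In Epi 12 were measured, 3 higher and 1 lower (median 0.01), against 30.6% and 7.92% of all genes. Nr5a2, which encodes LRH-1, a partner of SHP, had 201 and 199 reads in organoids and 217 and 392 in Epi (log2 1.15 in the authors' deposited table). Fgfr4, the main receptor of FGF15, had 66 and 109 reads in organoids (FDR 0.00824) and 15 and 34 in Epi (FDR 0.00144), short of the limit in both. Of the 14 genes for bile acid synthesis and modification, 6 were measured in organoids and 0 passed, against 3.09% and 4.7% of all genes. In Epi 6 were measured with 2 higher and 3 lower, against 30.6% and 7.92% of all genes. Cyp3a11, an enzyme that hydroxylates bile acids and drugs in mice, was at log2 -1.19 in Epi in the authors' deposited table.

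Markers of the proximal small intestine went different ways in the comparisons. In Epi all 28 measured genes of the proximal enterocyte list were lower in F4KO at FDR of 0.001 or less (median -0.60), 7 of them by at least 2-fold, against 7.92% of all genes lower. In organoids 9 of 28 were higher and 2 lower (median 0.12), against 3.09% and 4.7% of all genes. Cyp2c66, a cytochrome P450 gene, had 4454 and 5431 reads in organoids and 1464 and 349 in Epi, and its log2 fold changes in the authors' deposited table were 0.30 and -1.77. Apoa4, an apolipoprotein of chylomicrons, was at 0.37 and -1.30 there. Rbp2, the retinol binding protein of enterocytes, was at 0.46 and -1.19.

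Distal enterocyte genes were also more often lower than higher. Of 28 in Epi, 5 were higher and 16 lower (median -0.09), against 30.6% and 7.92% of all genes. Of 25 measured in organoids, 1 was higher and 5 lower (median -0.07), against 3.09% and 4.7% of all genes. Vnn1, a pantetheinase, had 271 and 136 reads in organoids (log2 -1.035 in the authors' deposited table). Clca4a was at -1.57 in Epi. General markers of mature enterocytes also moved in Epi, with 1 of 12 higher and 10 lower, against 30.6% and 7.92% of all genes. In organoids 4 of these 12 were higher and 3 lower, against 3.09% and 4.7% of all genes. Their part in the lower regional genes was not tested.

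The regional lists also separated the organoid from the Epi libraries. Of 17 distal genes with recovered reads, 16 were at least 2-fold higher in Epi WT than in WT organoids, with a median ratio of 95.2. Of 5 iron and calcium uptake genes, 4 were at least 2-fold lower, with a median of 0.0483. Cybrd1, the duodenal ferric reductase, had 9708 and 9362 reads in organoids and 16 and 17 in Epi. Proximal enterocyte genes did not follow Cybrd1: 10 of 15 were at least 2-fold higher in Epi WT and 2 lower, with a median of 7.0. Slc40a1, the iron exporter, had 1405 and 1137 reads in organoids and 76 and 334 in Epi, and was at log2 -0.29 and 2.45 in the authors' deposited table.

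Other intestinal transcription factors were mixed. Of 18 measured in organoids, 3 were higher and 1 lower (median 0.02), against 3.09% and 4.7% of all genes. Of 18 in Epi, 8 were higher and 6 lower (median 0.20), against 30.6% and 7.92% of all genes. Gata5, the remaining intestinal GATA gene, had 210 and 238 reads in organoids and 3073 and 1989 in Epi, at log2 0.24 (FDR 0.392) and -0.36 (FDR 1.20e-14) in the authors' deposited table, so it had the signs of Gata4 and Gata6. Zfpm1, a GATA cofactor, was at 0.42 and -0.38, both past the FDR limit. Cdx2, the main intestinal homeobox factor, was at 0.03 and -0.24. Its relative Cdx1 was higher in F4KO past the FDR limit in both, with 2364 and 2771 reads in organoids and 1953 and 2600 in Epi. Maf was at -0.99 in organoids with 199 and 99 reads.

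Hox genes, which mark position along the body, were scarce. In organoids 2 of 35 were measured and 0 passed the limit. In Epi 6 were measured and 3 were higher in F4KO, against 30.6% of all genes. These 3 were Hoxb3 with 0 and 21 reads, Hoxb5 with 3 and 19, and Hoxb6 with 7 and 41. All 6 measured genes had few Epi WT reads and reached the read filter through their Epi F4KO reads. The direction of this Hox count was therefore set by the filter, and it cannot be held against the share of all genes. Of 14 colon genes, 3 were measured in organoids (1 higher, 0 lower, against 3.09% and 4.7% of all genes) and 8 in Epi (3 higher, 1 lower, against 30.6% and 7.92% of all genes).

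**Figure D4:**
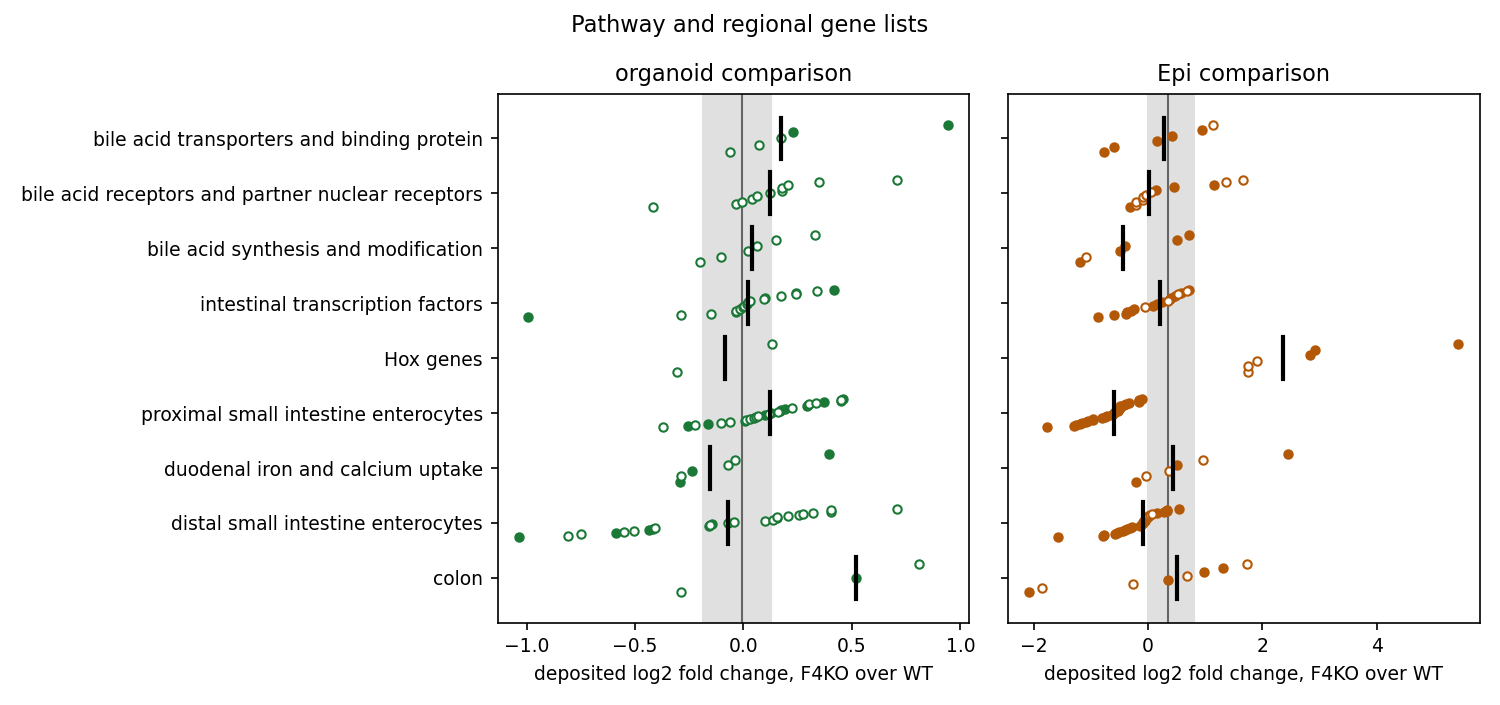
Deposited log2 fold changes (F4KO over WT) of measured genes in 9 lists, in organoids on the left and Epi on the right, with different axis ranges; filled dots have FDR of 0.001 or less, black bars are list medians, the grey band the quartiles of all measured genes and the grey line their median. All 28 proximal enterocyte genes lie below 0 in Epi, and their median in organoids is 0.12.

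Markers of other cell types did not all move alike in the Epi comparison. Smooth muscle genes summed to 20 reads in Epi WT and 240 in Epi F4KO over 7 genes, and Acta2 had 3 and 61. Of 5 measured genes 5 were higher, against 30.6% of all genes. They reached the 20-read filter only through their Epi F4KO reads. The direction of this count was therefore set by the filter, and it cannot be held against the share of all genes. Fibroblast genes summed to 226 and 296 reads over 9 genes, most of them from Vim with 199 and 163. Of 6 measured fibroblast genes 4 were higher, against 30.6% of all genes. Col1a1 with 4 and 33 reads and Col3a1 with 5 and 36 also reached the filter only through Epi F4KO, so this count has the same limit. Endothelial genes summed to 39 and 46 reads over 7 genes, and 0 of 2 measured genes passed the limit in either direction, against 30.6% and 7.92% of all genes. Immune genes summed to 7463 and 6814 reads in Epi over 14 genes, and to 77 and 59 in organoids over the 9 with recovered reads, with 2 higher and 1 lower of 13 measured in Epi, against 30.6% and 7.92% of all genes. In organoids the smooth muscle list summed to 2522 and 1129 reads over 4 genes, nearly all from Myl9 with 2517 and 1123 (log2 -1.15 in the authors' deposited table, against 3.60 in Epi). The fibroblast list summed to 135 and 199 over 6 genes, mostly Vim with 128 and 194, while Acta2 had 2 and 2 reads and Col1a1 1 and 1. Pancreas markers summed to 235 and 280 reads in organoids and Ptf1a and the insulin genes Ins1 and Ins2 were not listed. Stomach markers summed to 257 and 257. Of 16 enteroendocrine genes measured in organoids, 6 were higher and 0 lower (median 0.25), against 3.09% and 4.7% of all genes. In Epi 2 of 15 were higher and 1 lower, against 30.6% and 7.92% of all genes. Of 4 liver genes measured in each comparison, 0 were higher and 1 lower in organoids. In Epi 1 liver gene was higher and 0 lower, with the same shares of all genes beside them. Epithelial markers were mixed. Epcam had 13026 and 13369 reads in organoids and 45040 and 31648 in Epi, while Krt18 had 16637 and 13103 in organoids and 2777 and 3072 in Epi. Of 9 measured epithelial genes, 3 were higher and 6 lower in Epi at FDR of 0.001 or less, against 30.6% and 7.92% of all genes. In organoids 2 were higher and 2 lower, against 3.09% and 4.7% of all genes. The part of these cells in the Fgf15, GATA and Hox values was not tested.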

How the data were processed

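RNA-seq libraries were made from 1.5 ug of total RNA of day 6 organoids with a SMARTER mRNA-Seq kit, per the labels' protocols. The authors deposited, per the file headers, a log2 fold change of F4KO over WT, a p-value of a Poisson-based test and an FDR for each gene and transcript. The organoid FDR passes 1 for some genes and is treated as a score of the authors. The submitters' processing notes name the builds GRCm38 and mm10. Neither an aligner nor a quantifier is given in the sources used here.

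Read numbers were recovered as the whole-number pair whose two-sided Audic-Claverie p-value matches the deposited one within a relative 7e-06 and fits the fold change, for 5225 genes in organoids and 8724 in Epi. With p-values shifted by 0.03%, 4.59% and 4.96% as many genes still matched. For list genes with transcript support, 1 of 73 organoid pairs and 0 of 90 Epi pairs differed. Recovery was tested on simulated data. The total of the Epi WT library relative to WT organoids was set from the reads per unit of deposited level of 205 genes with 1 transcript, 93 of them in the mode (1.12, quartiles 1.118 and 1.123), which assumes that levels were scaled alike in both comparisons. A gene counted as measured from 20 reads in the pair of libraries, and a gene that no pair fitted counted as measured.

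The 10 genes and all lists were chosen with earlier results of these data known. The rule for named genes was all 10 and, of each other list, up to 6 past the call rule and the 3 measured genes of largest fold change per comparison; not all of these are printed. Genes named outside that rule were chosen after their values were seen. Python 3.11.15, scipy 1.17.1 and pandas 2.3.3 were used. Alternatives covered the FDR and size limits, read filters, recovered read ratios, an added read, the FDR recomputed, transcripts and centring.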

Additional observations from a re-analysis of the deposited data

Results flagged for a closer look

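Gata4 and Gata6 had opposite directions in the organoid and Epi comparisons, each with a counting interval of the read ratio on one side of 1. The Epi minus organoid difference of the deposited log2 fold changes was -0.51 for Gata4 and -0.68 for Gata6. With 1 library per group this difference between comparisons was not tested over samples.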

How the results depend on the processing

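No paired analysis was possible because each group held 1 library. Leaving out a replicate was not possible for the same reason, and the depth of the libraries is known only in relative terms. Slc10a2, Slc51a, Slc51b, Nr0b2 and Fgf15 had 17 to 61 reads per organoid library, and the counting interval of their organoid read ratio included 1 for all but Slc51a.

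Of the 10 genes, 0 passed in organoids under all 10 alternatives. In Epi the count of 1 became 7 with no size limit, 3 at 1.5-fold and 3 by the transcript with the lowest p-value, and stayed at 1 under the other alternatives. By the FDR limit alone, 30.6% of all Epi genes were higher and 7.92% lower. Shares over all genes were not worked out for the 1.5-fold and transcript settings or for the gap between comparisons. Genes that passed with a 2-fold gap between comparisons numbered 1, which became 7 with no size limit, 3 at 1.5-fold, 3 by transcript, 2 after centring on the all-gene median and 0 with at least 100 reads. The lists' count in organoids was 1 and became 27 with no size limit, 4 at 1.5-fold, 30 by transcript, 0 by recovered read ratio and 0 with 1 read added. The lists' count in Epi was 16 and became 86 with no size limit, 34 at 1.5-fold, 43 by transcript, 24 at FDR 0.05, 23 after centring and 12 with at least 100 reads. Of 200 values of single genes, 3 reversed: Nr1h4 in organoids (-0.80) and Gata4 in Epi (3.06) by transcript, and Slc51a in Epi (-0.31) after centring, which subtracts the all-gene median; the cause of the transcript reversals was not tested. Centring also took the called Epi genes from 91.9% to 74.3% higher. All counts after centring kept the deposited FDR, so only the fold changes were centred.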
